A study of Drosophila melanogaster with 24 samples.

Results

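The comparison described here is the interaction of tissue and diet in female flies: whether heads and bodies of w1118 females responded alike or differently to a high-fat diet (HFD) relative to a regular diet (RD). It rests on all 12 female libraries of the 24 in the series, 3 each of head HFD, head RD, body HFD and body RD, numbered 2, 3 and 4 on the labels in every group. The study fed both sexes of the w1118 strain, which carries no transgene and was the only strain used, either RD or the same food with 20% coconut oil (HFD), and sequenced RNA of pooled heads and pooled bodies. By the labels a female library is a pool of 100 heads or 10 bodies from flies aged 5 to 7 days, and the methods describe a week on either diet. The methods give more bodies per sample than the labels, and a schedule by which the flies would be older. The contrast is (head HFD minus head RD) minus (body HFD minus body RD) on the log2 scale, so a positive value means that the diet effect was more positive in heads and a negative value that it was more positive in bodies.

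The fly head holds the brain, the eyes, the antennae and a layer of fat cells, while the body holds the gut, the abdominal fat body, flight muscle and, in females, ovaries that make up much of the abdomen. The fat body, which does the work of both liver and adipose tissue, is present in head and body alike. Dietary fat is cut by lipases in the gut, carried in the blood by lipophorin, stored as triglyceride in droplets coated by perilipins, and burned by beta-oxidation in mitochondria and peroxisomes. Coconut oil is rich in saturated fatty acids of medium chain length.

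Counts on genes totalled 16923327 to 21594351 per library, and 11160 of 16727 genes had enough reads to be tested. Levels are given as CPM, read counts scaled to a common library size after TMM normalization, in the order of replicates 2, 3 and 4, and differences as log2 HFD over RD from edgeR's quasi-likelihood fit of all 12 libraries, with the standard error (SE). Tissue markers went with the labels: 6 photoreceptor genes summed to 44528 to 53369 CPM in the 6 head libraries and 101 to 140.0 CPM in the 6 body libraries, 17 ovarian germline genes to 139 to 162 CPM in heads and 5943 to 6729 CPM in bodies, and 7 genes of the male accessory gland and testis to at most 0.484 CPM in any of them. Some libraries stood apart from the rest. Summed CPM of 4 antennal genes was 6.58 in body HFD 4 and 6.23 in body RD 3, against 0.320 to 0.598 in the other 4 body libraries, and it was 24.8 in head HFD 4 against 9.83 to 18.7 in the other head libraries. Body RD 4 had the lowest sum of 6 midgut genes, 3137 CPM against 4716 to 5774 CPM in the other bodies. The biological coefficient of variation was 0.107 among head libraries and 0.178 among body libraries. The labels call the pools biological replicates without saying whether they came from separate cultures, so p-values measure the spread between these pools. By the study's methods heads and bodies were separated from the same tubes of flies, but the labels tie no head library to a body library. Because these are bulk samples, fewer cells of a type and less RNA per cell cannot be told apart in any value below.

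No gene passed the threshold for a different response in heads and bodies. The interaction was called for 0 of 11160 genes (0%) at an adjusted p under 0.05 by edgeR, and the smallest adjusted p was 0.891. Of the other tools run on the same libraries, limma-voom called 0 genes and DESeq2 called 1, fu12. At an unadjusted p under 0.05 the interaction picked 343 genes (3.07%), with 127 positive (1.14%) and 216 negative (1.94%). Evenly spread p-values would put 558 genes there, more than were found for the interaction, so the genes below are described by their values and not as established differences. The mean of the head and body effects was called for 1 gene (0.00896%), CG32694, which rose. In each tissue on its own 1 gene was called as well (0.00896%), CG32694 in heads and Vml in bodies.

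The estimated diet effects of heads and bodies had almost no correlation across genes. They had the same sign for 5906 of 11160 genes (52.9%), and across genes, which are not independent replicates, Pearson's r was 0.017 and Spearman's rho 0.077. Noise in the estimates pulls such a correlation toward 0, so these values do not show that the responses themselves were unrelated. At an unadjusted p under 0.05, 233 genes differed with diet in heads (2.09%) and 712 in bodies (6.38%), and 31 genes did so in both tissues, 28 of them in the same direction. The fit uses the same spread per gene for heads and bodies, although body libraries varied more, and the 2 numbers depend on this. Limma-voom gave 218 in heads and 790 in bodies, but 335 and 536 with quality weights per tissue. In heads 141 of the 233 were higher on HFD (1.26%) and 92 lower (0.824%), and in bodies 559 of the 712 were higher (5.01%) and 153 lower (1.37%). The majority in heads turned to 43.9% higher without head HFD 3 and 42.4% without head HFD 4, against 60.5% in all libraries. By limma-voom 67.8% of such genes were higher in bodies, against 78.5% here. A gene was taken as alike when its mean effect passed the threshold, both effects had one sign and the 95% interval of the interaction lay between -1 and 1. No gene met this at the adjusted threshold, since CG32694 had an interaction interval of 0.30 to 1.16. With an unadjusted p 340 genes met it, 244 higher on HFD in both tissues and 96 lower, out of 540 genes with an unadjusted p of the mean effect under 0.05 (4.84%), of which 405 were positive (3.63%) and 135 negative (1.21%). The 540 of the mean effect and the 233 in heads were also under 558, and the 712 in bodies above it. The number in bodies was under 558 without body RD 4 (410), without body HFD 4 (478) and with quality weights per tissue (536). In fits that left out 1 library it reached 1306 (without body RD 3). Being alike by this rule does not exclude an unadjusted interaction p under 0.05, which 32 of the 340 had, dpr17 and Obp56d among them. For 8130 genes (72.9%) the interval of the interaction lay between -1 and 1 whatever the size of the diet effect, so a difference of more than 2-fold between the tissues was outside the interval for those genes.

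**Figure D1:**
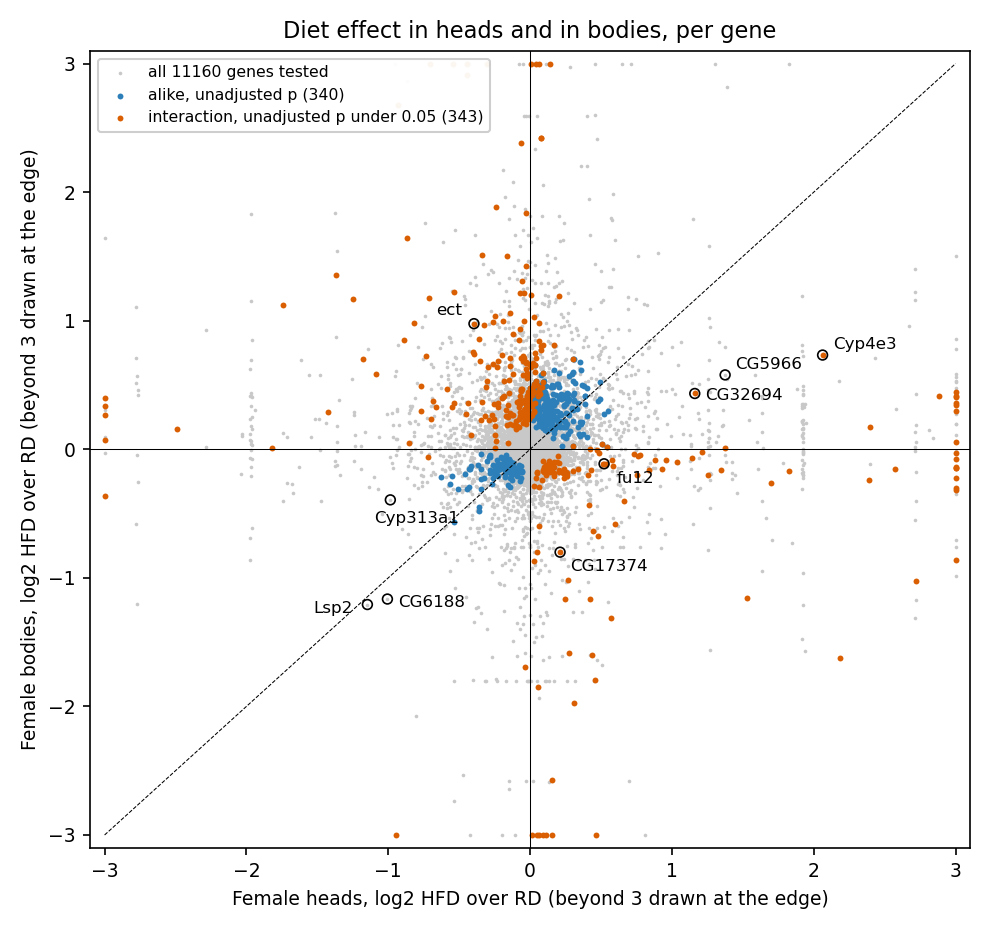
Each point is 1 of the 11160 genes tested, placed by its log2 HFD over RD in female heads (horizontal axis) and in female bodies (vertical axis), with values beyond 3 drawn at the edge and the dashed line marking equal effects. The 343 genes with an unadjusted interaction p under 0.05 (orange) lie mostly along the axes or in the quadrants of opposite sign, the 340 genes taken as alike (blue) lie near the dashed line, and CG32694, CG5966, Cyp4e3, Lsp2 and CG6188 stand apart from the cloud in the quadrants of one sign.

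Of the 343 genes, 275 had opposite signs in the 2 tissues, 110 of them higher on HFD in heads and lower in bodies and 165 the other way round. The other 68 had one sign, 17 with the larger effect in heads and 51 with the larger effect in bodies. Libraries of the 2 diets did not overlap for 754 genes in heads (6.76%) and 1084 genes in bodies (9.71%), and for 20 genes (0.179%) they were apart in both tissues in opposite ways. The genes named below as differing are the 12 with the smallest interaction p in each direction, none of which passed an adjusted threshold in edgeR (adjusted p from 0.891 to 1).

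Among genes with a more positive diet effect in heads, the smallest interaction p belonged to fu12 (current name Agpat2, dm6 chr2L:8449691-8463994, minus strand), which encodes an acyltransferase that makes phosphatidic acid, a precursor of phospholipids and triglyceride. It had 51.3, 48.8 and 44.2 CPM in HFD heads, against 33.3, 36.3 and 30.9 CPM in RD heads. Bodies went the other way, with 68.7, 71.3 and 68.5 CPM in HFD bodies, against 77.8, 71.7 and 76.00 CPM in RD bodies. All HFD libraries were thus above all RD libraries in heads and below them in bodies, with log2 effects of 0.52 (SE 0.077) in heads and -0.11 (SE 0.075) in bodies. The interaction was 0.63 (SE 0.11) with a 95% interval of 0.40 to 0.87 (edgeR adjusted p = 0.891), and DESeq2 gave an adjusted p of 0.0061. Leaving out single libraries moved the interaction only within 0.58 to 0.70.

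The gene CG12428 (current name CROT, chr3R:27703379-27706751, minus strand) is the fly carnitine octanoyltransferase, which in mammals passes medium-chain acyl groups from peroxisomes to carnitine. It had 44.2, 52.7 and 45.7 CPM in HFD heads, against 34.1, 34.8 and 31.2 CPM in RD heads, with no overlap. In bodies the diets overlapped, at 28.3, 31.5 and 29.05 CPM in HFD bodies, against 29.1, 29.3 and 27.99 CPM in RD bodies. The log2 effect was 0.51 (SE 0.084) in heads and 0.04 (SE 0.084) in bodies, and the interaction 0.47 (SE 0.12), with an interval of 0.21 to 0.73 (edgeR adjusted p = 1).

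The perilipin Lsd-2, a coat protein of lipid droplets, had the same pattern, although it ranked below the 12 and is a member of the fat storage list. Its level was 930, 919 and 812 CPM in HFD heads, against 660, 730 and 596 CPM in RD heads. Bodies held 689, 810 and 823 CPM in HFD bodies, against 788, 776 and 762 CPM in RD bodies, and the diets overlapped there. The interaction was 0.42 (SE 0.14) (edgeR adjusted p = 1). Among other list members, the trifunctional protein subunit Mtpalpha of mitochondrial beta-oxidation had log2 effects of 0.30 in heads and 0.02 in bodies (interaction adjusted p = 1), and the glutathione transferase GstD2 had 0.78 in heads and -0.05 in bodies (interaction adjusted p = 1). The fatty acid synthase CG17374 (current name FASN3) reached a positive interaction through its body values instead. It had 104, 113 and 148 CPM in HFD bodies, against 260, 163 and 214 CPM in RD bodies, with all HFD bodies below all RD bodies. Heads held 4.16, 4.56 and 4.11 CPM in HFD heads, against 2.95, 4.597 and 3.64 CPM in RD heads, which overlapped, and the interaction was 1.01 (SE 0.30) (edgeR adjusted p = 1).

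The 12 also held squ, ana3, cdc2 and Klp67A. The gene squ acts in the piRNA pathway of the germline, ana3 in centrioles, cdc2 (the mitotic kinase Cdk1) in entry into mitosis, and the kinesin Klp67A on the spindle. All of them were over 8-fold higher in bodies than in heads, where their levels were low. For example, squ had 1.404, 1.54 and 1.17 CPM in HFD heads, against 0.724, 0.968 and 0.607 CPM in RD heads. In bodies it had 74.1, 79.4 and 64.9 CPM in HFD bodies, against 82.9, 75.4 and 86.1 CPM in RD bodies, and only the head libraries were apart. The centriole gene ana3 had 4.55, 4.82 and 4.91 CPM in HFD heads, against 3.48, 3.39 and 3.76 CPM in RD heads, with no overlap, and 84.2, 85.3 and 71.5 CPM in HFD bodies, against 95.6, 82.4 and 91.9 CPM in RD bodies, with overlap. Interactions of the 4 genes ran from 0.59 for ana3 and 0.61 for cdc2 to 1.08 for Klp67A, with squ between them. CG14053 and CG12702, of which no role is given here, were likewise low in heads, with 0.843, 1.23 and 0.6402 CPM in HFD heads, against 0.435, 0.302 and 0.303 CPM in RD heads for CG14053. Over the list of 17 ovarian germline genes 1 gene, CycB (cyclin B), had a positive interaction with an unadjusted p under 0.05, beside 1.14% of all genes tested. The median log2 effect of the list was 0.13 in heads and -0.11 in bodies, beside medians of -0.00043 and -0.0045 over all genes tested. Summed CPM of those 17 genes was 150.2, 162 and 140.2 in HFD heads and 139, 147 and 148 in RD heads, so reads of these genes were present in every head library. Their part in these results was not tested.

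The rest of the 12 were CG32694, which is described with the mean effect, CG5835, with log2 effects of 0.47 in heads and -0.0044 in bodies, and the potassium channel gene Task7, with 0.06 in heads and -0.60 in bodies. Task7 was higher in heads than in bodies, at 41.3, 41.3 and 39.6 CPM in HFD heads, against 37.1, 40.8 and 39.1 CPM in RD heads. Its body values were low and apart, at 0.947, 0.728 and 1.03 CPM in HFD bodies, against 1.51, 1.47 and 1.13 CPM in RD bodies.

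Of the 12 genes with the smallest p among negative interactions, 10 were higher on HFD in bodies and lower in heads by their fitted effects. The smallest p belonged to ect (ectodermal, chr3L:10190276-10201837, minus strand), with 8.02, 14.2 and 11.9 CPM in HFD bodies, against 5.25, 6.68 and 5.43 CPM in RD bodies. In heads the order was reversed, with 3.54, 4.101 and 2.99 CPM in HFD heads, against 4.49, 4.36 and 5.16 CPM in RD heads. The diets did not overlap in either tissue, and the interaction was -1.37 (SE 0.30), with an interval of -2.02 to -0.72 (edgeR adjusted p = 1). CG10345 (chr3R:16597073-16604861, minus strand), a member of the CD36 family of scavenger receptors that take up lipids, was apart in both tissues too. It had 79.1, 87.8 and 83.3 CPM in HFD heads, against 101, 111 and 99.9 CPM in RD heads. Bodies held far less and ran the other way, at 4.14, 4.95 and 4.701 CPM in HFD bodies, against 3.52, 4.07 and 3.96 CPM in RD bodies. Its log2 effects were -0.32 (SE 0.076) in heads and 0.26 (SE 0.10) in bodies, and the interaction -0.57 (SE 0.13) (edgeR adjusted p = 1).

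Several negative interactions came from genes of high level in heads that were measured at low levels in bodies. Ef1alpha100E (current name eEF1alpha2), a translation elongation factor, had 796, 741 and 820 CPM in HFD heads, against 786, 759 and 858 CPM in RD heads, with overlap. In bodies it had 43.7, 43.8 and 43.9 CPM in HFD bodies, against 34.95, 34.2 and 33.9 CPM in RD bodies, a narrow spread with the diets apart, and the interaction was -0.38 (SE 0.099) (edgeR adjusted p = 1). The immunoglobulin-domain surface protein gene dpr17 had 2.29, 2.47 and 1.97 CPM in HFD bodies, against 1.28, 1.57 and 1.42 CPM in RD bodies. Head levels of dpr17 overlapped, at 64.8, 63.3 and 65.2 CPM in HFD heads, against 60.2, 61.9 and 66.3 CPM in RD heads. The cell adhesion gene beat-IV, also of the immunoglobulin superfamily, had log2 effects of -0.06 in heads and 0.71 in bodies. CG14274 (current name witty) had 0.06 in heads and 0.98 in bodies, where it was measured at 1.25, 1.601 and 1.79 CPM in HFD bodies, against 0.777, 1.03 and 0.538 CPM in RD bodies. All of these 4 genes were over 8-fold higher in heads than in bodies. The others of the 12 were CG5550, with an interaction of -1.80 (SE 0.46), Osi24 of the Osiris family with -0.91 (SE 0.26), and CG11409 with -0.73 (SE 0.20).

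For 3 of the 12 a whole group had no read, so the fitted value depends on the prior count and the counts are given instead. CG15153 had 0, 0 and 0 reads in HFD heads against 2, 3 and 2 in RD heads, and 27, 23 and 26 reads in HFD bodies against 21, 25 and 18 in RD bodies. CG16727 had 0, 0 and 0 reads in HFD heads against 1, 4 and 2 in RD heads, and 487, 378 and 428 in HFD bodies against 420, 322 and 302 in RD bodies. CG43094 had 40, 36 and 21 reads in HFD heads against 54, 51 and 23 in RD heads, and 3, 3 and 4 in HFD bodies against 0, 0 and 0 in RD bodies. In each case the difference rests on at most 4 reads per library in the tissue that holds less of the transcript, near the floor of 3 counts.

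**Figure D2:**
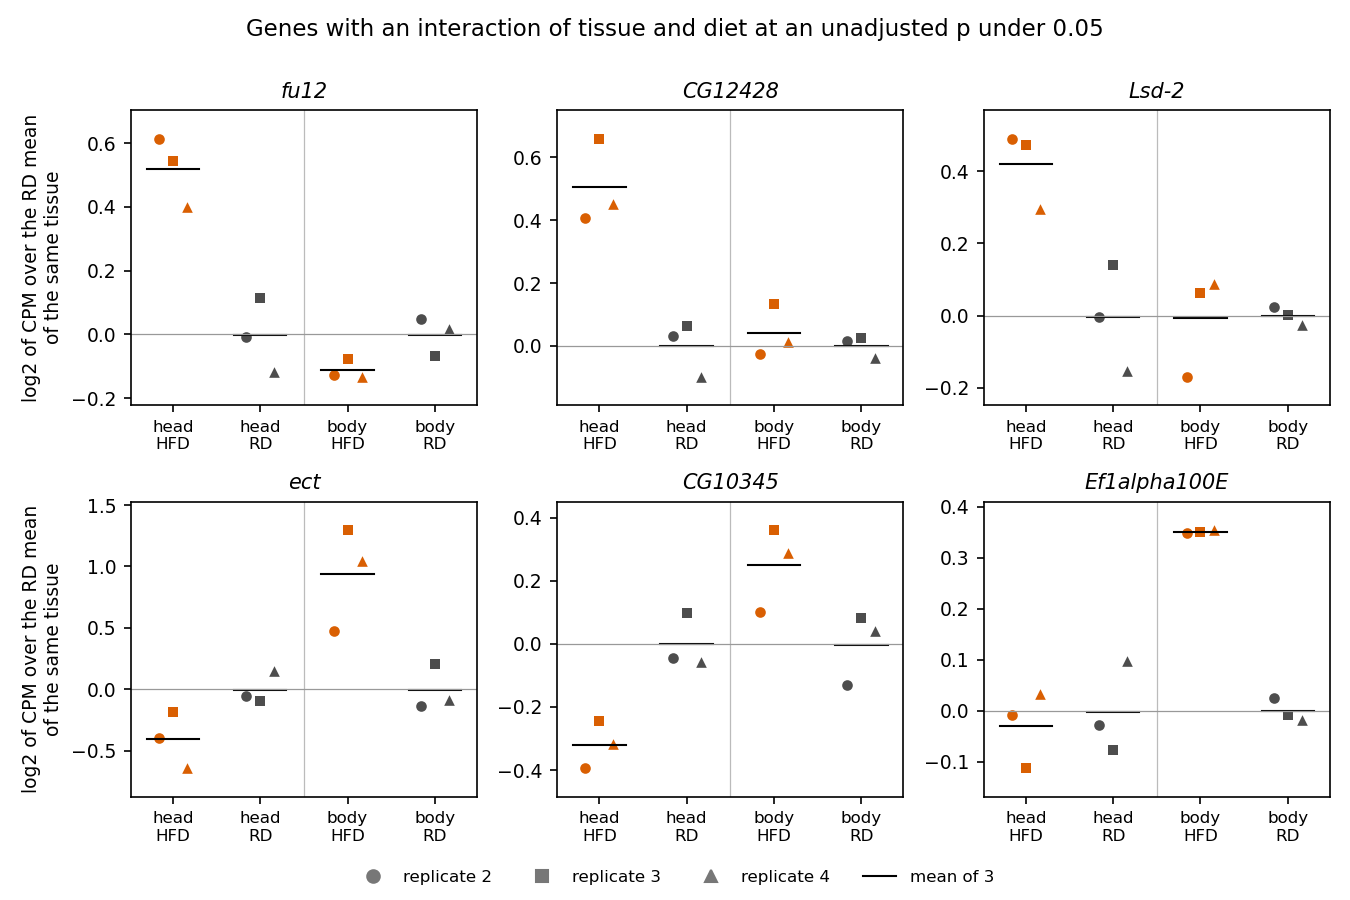
The plot shows 6 genes with an unadjusted interaction p under 0.05, as log2 of CPM over the mean of the RD libraries of the same tissue, for 3 libraries per group with replicates by symbol and the group mean as a line. For fu12, CG12428 and Lsd-2 the HFD heads lie above the RD heads while HFD bodies lie near or just below RD bodies, and for ect, CG10345 and Ef1alpha100E the HFD bodies lie above the RD bodies while HFD heads lie below RD heads (ect and CG10345) or among them (Ef1alpha100E).

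The single gene called for its mean effect, CG32694 (chrX:9989690-10006882, plus strand), was higher on HFD in both tissues by its fitted effects and passed the threshold in heads. It had 200, 169 and 161 CPM in HFD heads, against 81.4, 75.1 and 80.3 CPM in RD heads. In bodies it had 28.9, 40.99 and 39.6 CPM in HFD bodies, against 29.8, 28.6 and 22.6 CPM in RD bodies, and there HFD replicate 2 lay within the RD range. The log2 effect was 1.16 (SE 0.14) in heads (adjusted p = 0.0275) and 0.43 (SE 0.14) in bodies, with a mean of 0.80 (SE 0.099) (edgeR adjusted p = 0.0426). Its interaction was 0.73 (SE 0.20) (adjusted p = 1), so the gene also stands among the 12 positive interactions of smallest p. The call in heads was lost without any 1 of the 6 head libraries, without body HFD 4 and without body RD 3, so 4 of the 12 fits that left out a library kept it. The call of the mean effect was lost when any library other than body HFD 2 was left out (adjusted p from 0.0716 to 0.228), while the log2 value stayed between 0.74 and 0.87. It was also lost with the replicate number as a block (adjusted p = 0.0851) and with an estimated correlation within diet and number (adjusted p = 0.0769).

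Among the 12 genes of one sign with the smallest p of the mean effect, CG5966, Cyp4e3 and Obp56d had larger effects than most. The predicted triglyceride lipase CG5966 (chrX:5988791-5992640, plus strand) had 167, 105 and 189 CPM in HFD heads, against 59.7, 38.2 and 79.4 CPM in RD heads. It was also apart in bodies, with 51.3, 43.7 and 68.3 CPM in HFD bodies, against 38.9, 36.4 and 34.1 CPM in RD bodies. Log2 effects were 1.38 (SE 0.26) in heads and 0.58 (SE 0.26) in bodies (mean effect, edgeR adjusted p = 0.499). With the replicate number as a block the adjusted p was 0.0851 for the mean effect and 0.0387 in heads, where it was 0.414 without the block. The cytochrome P450 gene Cyp4e3 had 98.6, 51.4 and 150 CPM in HFD heads, against 21.2, 16.8 and 34.04 CPM in RD heads. Bodies held 7.82, 14.5 and 8.32 CPM in HFD bodies, against 7.54, 5.15 and 5.68 CPM in RD bodies, again with no overlap, and the mean effect was 1.40 (SE 0.28) (adjusted p = 0.499). For Cyp4e3 the effect was larger in heads, with an interaction of 1.33 (SE 0.55) (adjusted p = 1). Obp56d, an odorant-binding protein gene, leaned to bodies instead. It had 1289, 1404 and 1118 CPM in HFD heads, against 961, 1179 and 946 CPM in RD heads. In bodies the diets did not overlap, at 39.4, 30.2 and 36.4 CPM in HFD bodies, against 21.5, 23.4 and 20.3 CPM in RD bodies, and the interaction was -0.40 (SE 0.18) (adjusted p = 1). DESeq2 called the mean effect of CG5966, Cyp4e3 and Obp56d (adjusted p = 0.000281, 0.0109 and 0.000411).

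The other genes of the 12 differed in how close their effects in the 2 tissues were. The adenylyl cyclase gene Ac78C, whose product makes cyclic AMP, had 38.2, 41.1 and 38.1 CPM in HFD heads, against 30.8, 32.00 and 33.01 CPM in RD heads. Bodies held 9.87, 9.27 and 11.1 CPM in HFD bodies, against 8.04, 7.804 and 8.37 CPM in RD bodies. Neither tissue overlapped, the log2 effects were 0.29 (SE 0.084) in heads and 0.32 (SE 0.091) in bodies, and the interval of their difference was -0.30 to 0.24. CG34166 was lower on HFD in both tissues, with 12.6, 13.2 and 16.2 CPM in HFD heads, against 18.98, 17.8 and 17.1 CPM in RD heads. Bodies had 15.4, 13.8 and 16.2 CPM in HFD bodies, against 23.3, 18.4 and 21.7 CPM in RD bodies, and the interval of the interaction was -0.25 to 0.50. The tetraspanin gene Tsp42Ei had log2 effects of 0.31 in heads and 0.38 in bodies, with both tissues apart and an interval of -0.39 to 0.25. Ude, which encodes a nuclease that degrades uracil-containing DNA, had 0.29 and 0.58 in the same order, with an interval of -0.69 to 0.11. CG1889 had 0.30 in heads and 0.42 in bodies, CG3604 0.35 and 0.68, and CG5953 0.52 and 0.27. DESeq2 also called the mean effect of Ac78C, CG34166, Tsp42Ei, Ude, CG1889 and CG5953, with adjusted p from 0.0286 to 0.0497. By edgeR the adjusted p of each was 0.499. The twelfth gene, dpr17, met the rule by sign alone, since its head effect was 0.04. Libraries of the 2 diets did not overlap in either tissue, in the same direction, for 49 genes higher on HFD (0.439% of those tested) and 24 genes lower (0.215%).

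The 28 genes with an unadjusted p under 0.05 and one sign in both tissues were higher on HFD in 22 cases and lower in 6. Lsp2, a larval serum storage protein made by fat cells, had the largest effect of the 6. It had 36.3, 52.5 and 73.4 CPM in HFD heads, against 86.6, 134 and 140 CPM in RD heads, with no overlap. In bodies it was scarce and overlapped, at 1.25, 1.79 and 1.41 CPM in HFD bodies, against 4.25, 5.105 and 0.9298 CPM in RD bodies. The log2 effects were -1.15 (SE 0.34) in heads and -1.21 (SE 0.54) in bodies, and the interval of their difference, -1.28 to 1.40, was too wide to call them alike by the rule above. CG6188 (glycine N-methyltransferase, Gnmt), which uses up methyl groups in methionine metabolism, had 0.562, 1.28 and 0.747 CPM in HFD heads, against 2.37, 1.69 and 1.15 CPM in RD heads. Bodies had 0.449, 0.825 and 0.564 CPM in HFD bodies, against 0.823, 1.67 and 1.66 CPM in RD bodies, at a similarly low level and with overlap in both tissues, and log2 effects were -1.01 in heads and -1.16 in bodies. Among the genes higher on HFD were Odc1 (ornithine decarboxylase of polyamine synthesis), with 0.34 in heads and 0.36 in bodies, and PebIII, with 0.38 in heads and 0.42 in bodies. The 3 genes of opposite sign were CG10345, CG5767 and retinin, a protein of the corneal lens, for which the log2 effect was -0.34 in heads and 1.51 in bodies.

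**Figure D3:**
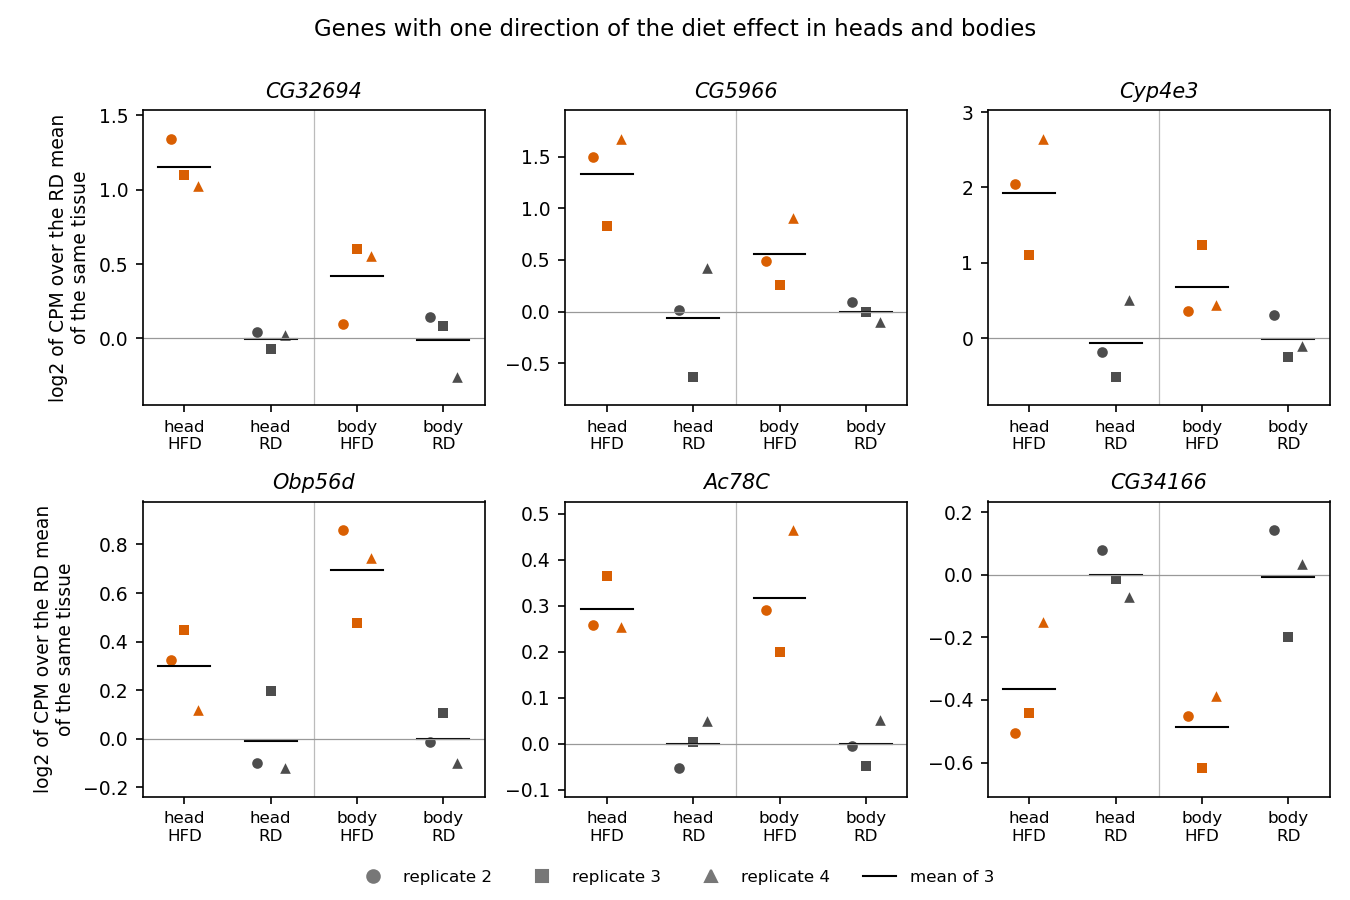
The plot shows 6 genes with the smallest p of the mean diet effect, as log2 of CPM over the mean of the RD libraries of the same tissue, for 3 libraries per group with replicates by symbol and the group mean as a line. The HFD means of CG32694, CG5966 and Cyp4e3 are farther above RD in heads than in bodies, that of Obp56d is farther above in bodies, and those of Ac78C (above) and CG34166 (below) are at similar distances in both tissues.

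Lists of genes by role were described by counts and medians, without a test of the list. The 18 genes of mitochondrial beta-oxidation had a median log2 effect of 0.087 in heads and 0.064 in bodies, and 13 of them had the same sign in both. The mean effect had an unadjusted p under 0.05 and was positive in 6 of the 18, and negative in 0, beside 3.63% and 1.21% of all genes tested. They were CG12262 (the medium-chain acyl-CoA dehydrogenase), whd (carnitine palmitoyltransferase, which admits long-chain fatty acids to mitochondria), Mtpalpha, Etf-QO, CG7461 and the thiolase yip2. Taken by tissue, 5 of the 18 were higher on HFD in heads at an unadjusted p under 0.05 and 0 in bodies. Over all genes tested the shares were 1.26% in heads and 5.01% in bodies. CG12262 had 405, 384 and 444 CPM in HFD heads, against 380, 295 and 326 CPM in RD heads, with the diets apart. In bodies it had 403, 351 and 444 CPM in HFD bodies, against 346, 357 and 328 CPM in RD bodies. The interval of the interaction lay between -1 and 1 for all 18 genes. The thiolase gene yip2 had log2 effects of 0.37 (SE 0.091) in heads and 0.12 (SE 0.091) in bodies (interaction adjusted p = 1). Of 11 genes of peroxisomal oxidation, 9 were higher on HFD in heads and 8 in bodies, with CG12428 the only one with an interaction p under 0.05. Such an interaction was positive in 1.14% of all genes tested. Over all 11160 genes tested 5510 were higher in heads and 5429 in bodies.

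The 14 genes of fat storage and lipolysis had medians of 0.11 in heads and 0.14 in bodies, and 11 had the same sign in both tissues. A mean effect with an unadjusted p under 0.05 was found in 4, all positive: CG5966, Lsd-2, the phosphatidate phosphatase Lpin and the acyltransferase CG3209. Over all genes tested 3.63% were positive and 1.21% negative at that threshold. Lpin leaned to bodies, where it had 209, 176 and 211 CPM in HFD bodies, against 165, 162 and 143 CPM in RD bodies with no overlap. In heads it had 409, 380 and 473 CPM in HFD heads, against 413, 369 and 432 CPM in RD heads. The lipases bmm and Hsl, which release stored fat, had mean effects with an adjusted p of 0.977 and 0.975, with log2 effects of 0.14 and 0.04 in heads and 0.08 and 0.04 in bodies. In the 22 genes of fatty acid synthesis, elongation and desaturation that were tested, the median was -0.022 in heads and 0.21 in bodies. The elongase-type gene CG5326 (0.26 in heads and -0.21 in bodies) was the one list member with an interaction p under 0.05, beside 1.14% of all genes tested with a positive one. CG17374 is not on the list. Summed CPM of that list overlapped in bodies, at 6697, 6894 and 8205 in HFD bodies and 7333, 7548 and 5530.0 in RD bodies, and its median interaction of -0.13 was -0.26 without body RD 3 and 0.019 without body RD 4. Glycolysis, with 14 genes, had 13 lower on HFD in heads and 11 higher in bodies, beside 5597 lower in heads and 5429 higher in bodies of all 11160 genes, but none of the 14 had an unadjusted p under 0.05 in either tissue or in the interaction.

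Genes of tyrosine and glycine catabolism were lower on HFD in 9 of 11 in heads and in 7 of 11 in bodies, with median log2 effects of -0.24 and -0.11. Over all 11160 genes tested 5597 were lower in heads and 5705 in bodies. Of the 6 fat body markers, Lsp2 among them, 5 were lower on HFD in heads too, with a median of -0.21, and 4 in bodies, with a median of -0.043. Their summed CPM was 10806, 13748 and 13872 in HFD heads and 13576, 13891 and 13829 in RD heads, so that head HFD 2 stood below the other 5 heads. The part of fat body RNA in the values of this list and of Lsp2 was not tested. The mean effect had an unadjusted p under 0.05 in 3 of the 11 catabolism genes, all negative, beside 1.21% of all genes tested. They were hgo (homogentisate dioxygenase), CG6188 and GstZ2 (maleylacetoacetate isomerase). The gene hgo had 16.5, 14.00 and 20.5 CPM in HFD heads, against 27.1, 24.98 and 36.3 CPM in RD heads, with no overlap. Bodies had 7.18, 4.37 and 6.49 CPM in HFD bodies, against 8.27, 7.07 and 6.85 CPM in RD bodies, with overlap, and the interaction was -0.49 (SE 0.29) (adjusted p = 1). GstZ2 had log2 effects of -0.43 in heads and -0.29 in bodies.

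Of 76 cytochrome P450 genes tested, 60 were higher on HFD in bodies and 32 in heads, beside 5429 in bodies and 5510 in heads of all 11160 genes. Their summed CPM overlapped in bodies, at 11456, 9817 and 11840 in HFD bodies and 10047, 10880 and 7450 in RD bodies, with RD replicate 4, the library of lowest midgut sum, below the rest. The median interaction of the list was -0.18, and it was -0.28 without body RD 3 and -0.049 without body RD 4. The interaction had an unadjusted p under 0.05 in 4 of them, positive for Cyp4e3 and negative for Cyp301a1, Cyp4aa1 and Cyp4c3. Over all genes tested 1.14% were positive and 1.94% negative. Cyp4c3 rested on body HFD 3, at 0.698, 2.09 and 0.188 CPM in HFD bodies, against 0.274, 0.245 and 0.294 CPM in RD bodies. Cyp313a1 did not overlap in heads, with 51.3, 56.96 and 40.1 CPM in HFD heads, against 89.3, 111 and 93.8 CPM in RD heads. Its log2 effect in heads was -0.99 (SE 0.15), with an adjusted p of 0.117 by edgeR, 2.61e-05 by DESeq2, 0.0199 by limma-voom, 0.0111 with quality weights, 0.0225 with the replicate number as a block and 0.0176 with an estimated correlation within diet and number. In bodies it was near 1 CPM and overlapped, at 0.797, 1.36 and 1.08 CPM in HFD bodies, against 1.14, 1.86 and 1.27 CPM in RD bodies, and its mean effect was -0.69 (SE 0.16) (adjusted p = 0.675 by edgeR and 0.0308 by DESeq2). In the takeout family 25 genes were tested, which include the feeding-related gene takeout (to). A positive mean effect with an unadjusted p under 0.05 was found in 4, beside 3.63% of all genes tested. The gene to had 151, 196 and 127 CPM in HFD heads, against 98.8, 115 and 77.8 CPM in RD heads, with no overlap in heads. Bodies of the 2 diets overlapped, at 25.1, 32.99 and 44.2 CPM in HFD bodies, against 29.9, 33.6 and 13.9 CPM in RD bodies.

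Of the lists described, the antimicrobial peptides had the median interaction farthest from 0, and it rested on 1 body library. The median log2 effect of 14 antimicrobial peptide genes was 0.10 in heads and 2.49 in bodies, and the median interaction -2.32. Diptericin (Dpt) had 76.3, 0.825 and 0.658 CPM in HFD bodies, against 0.777, 0.196 and 0.147 CPM in RD bodies. In heads it had 44.6, 6.15 and 0.9603 CPM in HFD heads, against 6.81, 5.504 and 2.12 CPM in RD heads. Replicate 2 on HFD was thus the highest library of its tissue for Dpt in both bodies and heads. AttC (Attacin-C) had 63.99, 3.49 and 1.27 CPM in HFD bodies, against 1.55, 1.86 and 0.783 CPM in RD bodies, and Mtk (Metchnikowin) 31.8, 1.02 and 0.423 CPM in HFD bodies, against 0.411, 0.638 and 0.196 CPM in RD bodies. Without body HFD 2 the median interaction of the list was -0.45, and over the 6 genes with at least 10 counts in every library it was -0.15. It was -3.97 without body RD 3, -3.48 without head HFD 2 and -1.56 without head RD 2. AttA, AttB, AttC and DptB had an unadjusted interaction p under 0.05, all negative, and none passed the adjusted threshold. Over all genes tested 1.94% had a negative interaction at that unadjusted p. The peptidoglycan recognition protein PGRP-SC1a, an amidase that degrades bacterial cell wall and shares near-identical sequence with PGRP-SC1b, did not rest on 1 library. It had 20.5, 24.9 and 29.1 CPM in HFD bodies, against 13.8, 15.02 and 10.9 CPM in RD bodies, with no overlap. Heads held at most 0.0966 CPM of it, so the interaction could not be resolved (-0.96 (SE 0.94)). PGRP-LB had 16.3, 14.9 and 17.7 CPM in HFD bodies, against 9.82, 14.04 and 12.6 CPM in RD bodies, also apart, and 11.6, 13.9 and 16.9 CPM in HFD heads, against 12.99, 12.8 and 11.7 CPM in RD heads, with overlap. The lysozyme gene LysP was at 0.112, 0.154 and 6.35 CPM in HFD heads, against 0.193, 0.121 and 0.0607 CPM in RD heads, so that its positive interaction, which had an unadjusted p under 0.05, rested on head HFD 4. Bodies held more of it, 74.5, 51.1 and 72.5 CPM in HFD bodies, against 52.9, 57.9 and 43.6 CPM in RD bodies, with overlap.

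Eggshell genes gave the single call in bodies. Vml, a vitelline membrane protein gene, rose there, with 24.8, 34.8 and 53.02 CPM in HFD bodies, against 3.34, 0.442 and 1.71 CPM in RD bodies. In heads it was at most 0.145 CPM, with 0.112, 0.0513 and 0.107 CPM in HFD heads, against 0.145, 0.0605 and 0.121 CPM in RD heads. The body effect was 4.34 (SE 0.47) (edgeR adjusted p = 0.0113), and the interaction -4.64 (SE 1.77) (adjusted p = 1). It was the only one of the 20 eggshell genes tested with an interaction p under 0.05, beside 1.94% of all genes tested with a negative one. Over the 20 genes the median was -0.025 in heads and 1.04 in bodies. Of them 18 were higher on HFD in bodies, beside 5429 of all 11160 genes tested. The median interaction of the list was -0.96, and it was -0.38 without body HFD 4 and -2.17 without body RD 2. Vm34Ca had 47.05, 94.2 and 98.3 CPM in HFD bodies, against 13.2, 1.86 and 10.6 CPM in RD bodies, and dec-1, a chorion protein gene, 156, 184 and 246 CPM in HFD bodies, against 62.7, 10.2 and 7.29 CPM in RD bodies. The chorion gene Cp15 ran the other way, with 242, 102 and 50.9 CPM in HFD bodies, against 317, 378 and 202 CPM in RD bodies and overlap. In heads the list summed to at most 17.3 CPM, so its head effects rested on few reads. Summed CPM of the list was 1048, 1289 and 2799 in HFD bodies and 1243, 1581 and 388 in RD bodies, and these sums overlapped. The call of Vml in bodies was lost with limma-voom, with quality weights, with an estimated correlation within diet and number, in the 6 body libraries alone, and without body HFD 4 or body RD 4. How reads that fit more than 1 vitelline membrane gene were counted is not given in the sources used here.

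**Figure D4:**
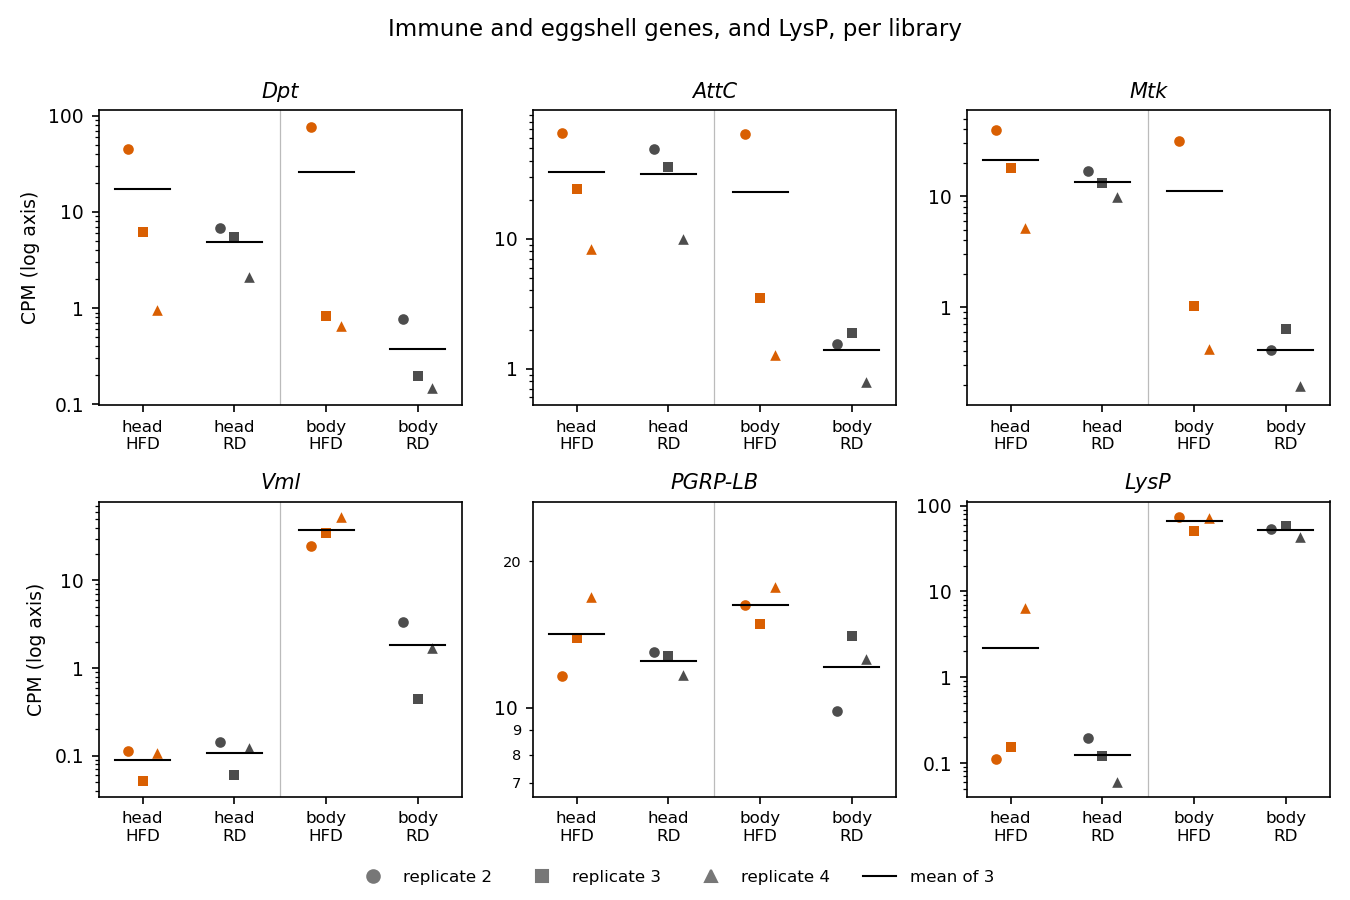
CPM on a log axis of 3 antimicrobial peptide genes (Dpt, AttC, Mtk), the eggshell gene Vml, the recognition protein PGRP-LB and the lysozyme LysP, for 3 libraries per group with replicates by symbol and the group mean as a line. For the peptide genes body HFD 2 lies far above the other 5 body libraries, for Vml all 3 HFD bodies lie above the RD bodies while heads are near 0.1 CPM, and for LysP head HFD 4 alone departs from the other heads.

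Among genes that heads express more than bodies, negative interactions outnumbered positive ones. Of 1274 genes over 8-fold higher in heads, 71 had a negative and 11 a positive interaction with an unadjusted p under 0.05, and of 2139 genes 2- to 8-fold higher in heads 73 and 15. For 1104 genes over 8-fold higher in bodies, the counts were 13 negative and 44 positive. Over all 11160 genes tested they were 216 negative (1.94%) and 127 positive (1.14%), so negative ones were more numerous there too. The median body effect was 0.14 in the genes over 8-fold higher in heads and 0.12 in those 2- to 8-fold higher, and 70.7% and 73.8% of them were higher on HFD in bodies. In heads the medians of the same classes were 0.016 and 0.0096. By library, the median deviation of the 1274 genes from the mean of the 6 bodies was -0.031, 0.11 and 0.12 in HFD bodies and -0.0038, -0.064 and -0.11 in RD bodies. The diets overlapped in this measure, because HFD replicate 2 lay below RD replicate 2. From group means of log2 CPM, the median body difference of the 1274 genes was 0.13. It lay between 0.092 and 0.18 when any 1 body library was left out. The class 2- to 8-fold higher in heads was not recomputed in this way. By library, its median deviation was 0.0294, 0.0405 and 0.13 in HFD bodies and -0.0078, 0.0293 and -0.19 in RD bodies. For these 2139 genes HFD replicate 2 and RD replicate 3 were thus nearly level. Replicate 4 of each diet lay farthest from 0.

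Of 17 neuropeptide genes, 14 were higher on HFD in bodies with a median of 0.31, and 11 in heads with a median of 0.019, beside 5429 in bodies and 5510 in heads of all 11160 genes. Their summed CPM in bodies overlapped, at 848, 884 and 825 in HFD bodies and 938, 994 and 649 in RD bodies. The median interaction of -0.25 was -0.11 without body HFD 4 and -0.16 without head HFD 2. Tachykinin (Tk), made by brain neurons and by endocrine cells of the gut, had 11.5, 13.5 and 15.6 CPM in HFD bodies, against 10.2, 10.8 and 9.64 CPM in RD bodies, with no overlap. Heads overlapped, at 66.8, 78.9 and 87.5 CPM in HFD heads, against 78.8, 72.1 and 82.1 CPM in RD heads, and the interaction was -0.41 (SE 0.17) (adjusted p = 1). CCHa1 likewise had a negative interaction, -0.46 (SE 0.20) (adjusted p = 1). A negative interaction with an unadjusted p under 0.05 was found in 2 of the 17, beside 1.94% of all genes tested. In bodies 6 of the 17 were higher on HFD at an unadjusted p under 0.05, beside 5.01% of all genes tested. AstA, AstC, Pdf and sNPF were among the 6, with log2 effects of 0.28, 0.34, 0.31 and 0.40 in bodies. Muscle proteins were higher on HFD in 20 of 21 genes in bodies (median 0.14) and in 6 of 21 in heads (median -0.032), to be read against the same counts over all genes, with paramyosin (Prm) the only one with an interaction p under 0.05. The interaction of Prm was negative, beside 1.94% of all genes tested with a negative one at that p. Beside these body effects, summed CPM of the 17 ovarian germline genes was 6059, 6186 and 5970 in HFD bodies and 6679, 5943 and 6729 in RD bodies, and that of 4 neuronal genes 72.6, 109 and 105 in HFD bodies and 99.8, 80.0 and 81.7 in RD bodies. The part of tissue make-up in the body effects was not tested.

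**Figure D5:**
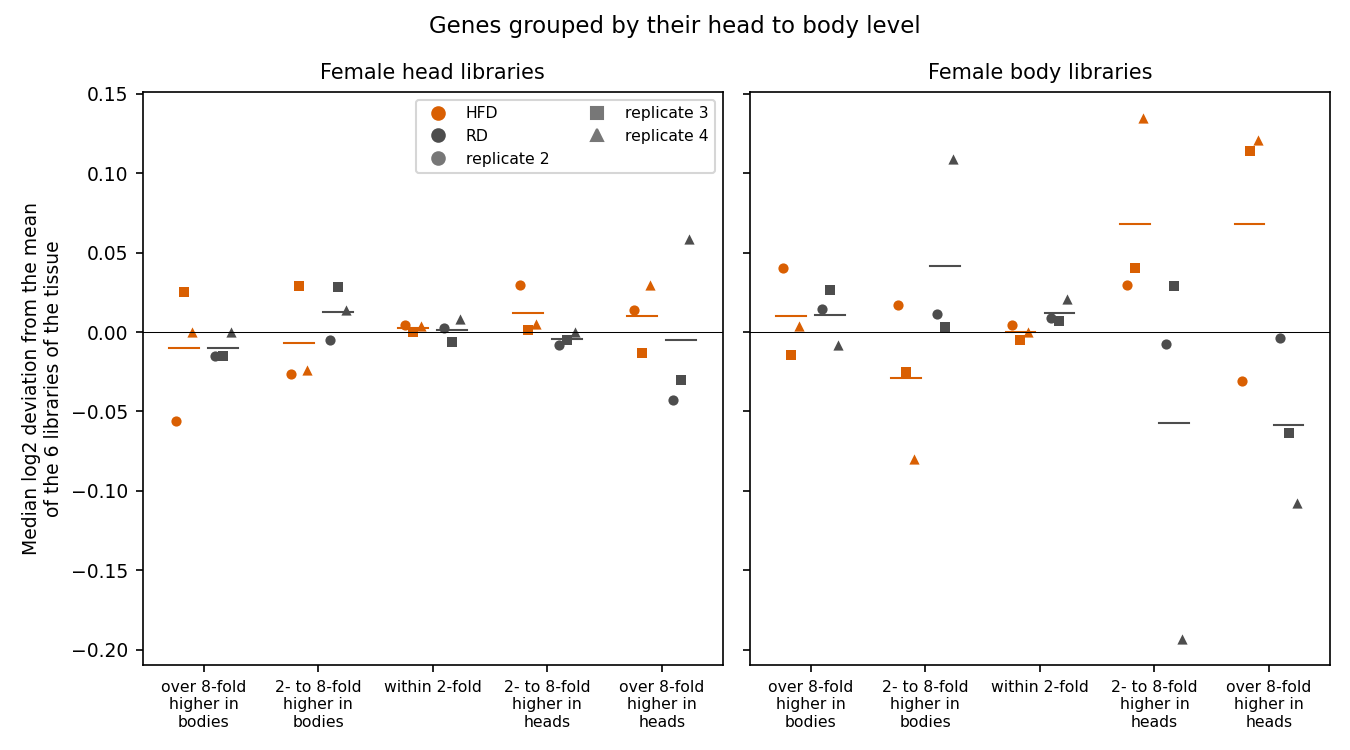
Genes tested were put in 5 classes by the ratio of their head to their body level, and each point is the median log2 deviation of a class in 1 library from the mean of the 6 libraries of its tissue, with HFD left of RD, replicates by symbol and group means as lines. In bodies the 2 classes of genes higher in heads have HFD means above RD means, with body RD 4 and body HFD 4 farthest apart, while in heads the group means of all classes lie close to 0.

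The study had picked genes of female heads and bodies for RT-PCR from its own analysis of these libraries, so their direction here is not independent evidence. Of the 12 picked for heads, 8 had a positive and 1 a negative mean effect with an unadjusted p under 0.05, and 10 had the same sign in bodies. Over all genes tested such mean effects were positive in 3.63% and negative in 1.21%. GIIIspla2, a secreted phospholipase, had log2 effects of 0.54 (SE 0.12) in heads and 0.02 (SE 0.12) in bodies (interaction adjusted p = 1), and CG34305 -0.73 (SE 0.23) and 0.73 (SE 0.37) (adjusted p = 1). CG9701, a predicted glycosidase, had log2 effects of 0.48 in heads and 0.37 in bodies, with an interval of -0.38 to 0.59. Of the 8 picked for bodies, 4 had a negative and 1 a positive interaction with an unadjusted p under 0.05. Over all genes tested the shares were 1.94% and 1.14%. Thor, an inhibitor of translation initiation, had 423, 371 and 313 CPM in HFD bodies, against 252, 280 and 200 CPM in RD bodies, with no overlap. Its heads overlapped, at 360, 442 and 305 CPM in HFD heads, against 341, 358 and 264 CPM in RD heads, and the interval of the interaction was -0.93 to 0.13.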

How the data were processed

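RNA of pooled heads or bodies of w1118 females was sequenced in 12 libraries of TruSeq stranded mRNA. The authors deposited raw read counts for 16727 genes, without normalization, and 1 column of gene lengths that was not used. By the paper's methods reads were aligned with TopHat, and a mouse annotation is named for the gene models; the submitters' processing notes list featureCounts and dm6. Settings for strand and for reads that fit several genes are not given in the sources used here. Coordinates are those of the BDGP6 (dm6) annotation, in which 16508 symbols were matched.

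Genes were kept by filterByExpr (minimum count 10, minimum total 15), normalized by TMM and fitted with 1 mean per group in edgeR 4.0.16 under R 4.3.3 (glmQLFit and glmQLFTest), with Benjamini-Hochberg adjustment over the 11160 genes tested and a threshold of 0.05. The SE is the size of the log2 change over the square root of F, and 95% intervals use the t distribution of the fit. An exact permutation test of 3 libraries against 3 cannot give a two-sided p under 0.1, so genes were tested only in the fit across all genes. The members and lists were chosen with earlier results of these data known. Named genes are the 12 with the smallest interaction p in each direction, the 12 of one sign with the smallest p of the mean effect, list members, and 11 genes known from earlier results; others (Cyp313a1, Odc1, PebIII, retinin, CG5767) were chosen after their values were seen. No library pair of a group agreed within sampling noise. Alternatives were DESeq2 1.42.0, limma-voom (limma 3.58.1), other size factors and filters, replicate blocks, and fits that each omitted 1 library. The fits were tested on simulated data, and figures were drawn with matplotlib 3.10.9.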

Additional observations from a re-analysis of the deposited data

How the results depend on the processing

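The interaction stayed at 0 called genes in every alternative except DESeq2, which called 1, and it numbered 343 at an unadjusted p. Left-out libraries gave 0 calls throughout, and 263 (without head RD 2) to 692 genes (without body RD 3) at an unadjusted p, with 525 without body HFD 3. The mean effect, 1 call, gave 14 with DESeq2, 0 with the replicate number as a block, 0 with an estimated correlation within diet and number, 540 at an unadjusted p, and 0 to 1 in left-out fits (409 to 885 at an unadjusted p, the most without body RD 3). The head effect, 1 call, gave 16 with DESeq2, 2 with limma-voom, 2 with quality weights, 3 with the replicate number as a block, 2 with the estimated correlation, 233 at an unadjusted p, and 0 to 1 in left-out fits (177 to 356 at an unadjusted p, the most without head HFD 4). The body effect, 1 call, gave 9 with DESeq2, 0 with limma-voom, 0 with quality weights, 0 with at least 10 counts in every library, 0 with the estimated correlation, 0 in the 6 body libraries alone (358 at an unadjusted p), 712 at an unadjusted p, and 0 to 8 in left-out fits (8 without body RD 3, and 410 to 1306 at an unadjusted p, the fewest without body RD 4 and the most without body RD 3). With at least 10 counts in every library Vml was not tested, because head libraries held 1 to 3 reads of it. The share of genes of one sign was 48.0% with at least 1 count in any library and 49.6% to 56.5% in left-out fits. Alike genes numbered 10 with DESeq2 and 0 to 1 in left-out fits (231 to 525 at an unadjusted p, the most without body HFD 2). The replicate number as a block gave 0 interaction calls (405 at an unadjusted p, 397 with diet and number together). Same-numbered libraries share only a number in the labels: r of their deviations ran from -0.176 to 0.491 and was over 0.1 in 10 of 18 pairs. It was 0.491 and 0.33 for replicates 3 and 4 of head HFD with head RD but -0.0918 for replicate 2, negative in the 3 body pairs, and -0.159 to 0.252 for head and body of 1 diet. Set only against the 3 libraries of the other tissue on the same diet, 8 of 12 libraries correlated best with their own number. The cause of these changes was not tested. Of 938 recomputed values of the named genes, 0 turned their direction and 10 newly passed the threshold, all with DESeq2. Most of these genes were picked by their p in the same libraries, and each refit used all or all but 1 of them. A kept direction is therefore no independent evidence. Body libraries varied more than head libraries, and the interactions of CG15153, CG16727 and CG43094 rest on at most 4 reads per library in 1 tissue.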
